A study of Mus with 6 samples.

Results

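Expression of 9 genes of the striatal projection neurons was examined in mouse brain. The genes were taken by symbol: the dopamine receptor genes Drd1 and Drd2, the adenosine receptor gene Adora2a, the signalling genes Ppp1r1b, Rgs9 and Pde10a, and the neuropeptide genes Penk, Pdyn and Tac1. Of these 9 genes, 8 had a value among the 19505 genes of the table, each from 1 probe set, and Adora2a was not analysed here, as no probe set carries its symbol in the annotation used. The brains came from ICR mice, an outbred stock, in 3 groups of 2 arrays. CK2 mice received ginsenoside compound K (CK) at 40 mg/kg by gavage together with SCOP at 2 mg/kg by intraperitoneal injection. SCOP mice received the same SCOP dose alone, and Control mice received saline by gavage. SCOP is spelled scopoletin hydrobromide in the labels and served to impair memory. All mice went through behavioural testing, which included electric shocks in a step-down test, before the brain was removed. The labels name the tissue as brain with no region, and the sources do not say if a sample was a single mouse or pooled mice. Arrays of a group are titled as biological replicates, and every p-value measures only the spread between these arrays.

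Spiny projection neurons are the main output cells of the striatum and receive dense dopamine input from the midbrain. Cells of the direct pathway carry the D1 receptor and make dynorphin and substance P, while cells of the indirect pathway carry the D2 receptor and the adenosine receptor of Adora2a and make enkephalin. Dopamine raises cAMP signalling through D1 and lowers it through D2, and acetylcholine from local interneurons acts on the same cells through muscarinic receptors. In whole brain tissue the level of these genes depends on how much striatum a sample holds and on how strongly its neurons express them. Cells outside the striatum that express a gene also add to its level. Fewer projection neurons, less RNA per neuron and a lower level in other cells cannot be told apart in such samples.

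Values are log2 values made with RMA, so a difference of 1 is a doubling of signal, and total RNA per sample cannot be read from them. A gene was treated as dim on an array where it lay under the 95th percentile of that array's negative controls, which was 4.98 to 5.55. All 8 genes were above this level on 5 of the 6 arrays. The exception was SCOP replicate 2, where Drd1, Drd2 and Pdyn were dim. This array stood apart as a whole: it correlated with the other arrays at 0.965 to 0.969 over all genes, while the other 5 correlated with each other at 0.990 to 0.993. Its background probes of high GC content (at least 16 bases G or C) had a mean of 6.10, against 4.99 to 5.19 on the others. Each result below that uses this array is therefore also given without it, and the part of the array's background in any result was not tested.

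Drd1 (TC1300002024.mm.2) encodes the D1 receptor, which couples to the stimulatory G protein of the striatum. It read 6.06 and 5.99 on the CK2 arrays, 6.21 and 5.40 on the SCOP arrays, and 6.24 and 6.43 on the Control arrays (replicates 1 and 2 in this order here and for the genes that follow). Both CK2 arrays lay below both Control arrays and below SCOP replicate 1, and only SCOP replicate 2 was lower. Drd2 (TC0900000593.mm.2) encodes the D2 receptor, which inhibits adenylyl cyclase and also acts as an autoreceptor on dopamine neurons. It read 6.21 and 6.17 in CK2, 6.57 and 4.96 in SCOP, and 6.40 and 6.43 in Control. The 2 SCOP arrays held both the highest and the lowest Drd2 value of the 6, so the SCOP mean of 5.77 ± 1.14 (SD, n = 2) described neither. The CK2 mean was 6.19 ± 0.03 (SD, n = 2) and the Control mean 6.42 ± 0.02 (SD, n = 2), with no overlap between their arrays.

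Rgs9 (TC1100003986.mm.2) encodes a regulator of G protein signalling whose brain form is concentrated in the striatum and shortens D2 receptor signals. It read 7.27 and 7.16 in CK2, 7.66 and 6.27 in SCOP, and 7.54 and 7.62 in Control. The 6 arrays had the same order for Rgs9 as for Drd2, with CK2 below Control and the SCOP arrays at the extremes. Ppp1r1b (TC1100001564.mm.2) encodes DARPP-32, the phosphoprotein through which dopamine and cAMP control protein phosphatase 1. It read 8.04 and 7.76 in CK2, 8.09 and 7.43 in SCOP, and 7.93 and 8.02 in Control. The CK2 arrays lay on either side of the Control arrays. Pde10a (TC1700000092.mm.2), the phosphodiesterase that breaks down cyclic nucleotides in projection neurons, read 9.08 and 8.76 in CK2, 8.84 and 8.47 in SCOP, and 8.90 and 8.98 in Control. The CK2 arrays again enclosed the Control arrays, and both SCOP arrays lay below them.

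Penk (TC0400002139.mm.2) encodes the enkephalin precursor of the indirect pathway and read 10.25 and 9.93 in CK2, 10.002 and 9.33 in SCOP, and 10.006 and 10.10 in Control. Both SCOP arrays lay below both Control arrays, replicate 1 only marginally. Pdyn (TC0200004608.mm.2), the dynorphin precursor of the direct pathway, read 5.60 and 5.524 in CK2, 5.513 and 4.99 in SCOP, and 5.44 and 5.519 in Control. Among the 5 arrays other than SCOP replicate 2, Pdyn had the narrowest range of the 8 genes, 0.15 on the log2 scale. Tac1 (TC0600000044.mm.2), the precursor of substance P, read 8.37 and 7.84 in CK2, 8.12 and 8.43 in SCOP, and 8.04 and 8.13 in Control. It was the exception among the 8 genes: its highest value was on SCOP replicate 2, where the other 7 had their lowest, and 32.6% of all genes and 24.8% of those not dim on every array were highest there. Tac1 also had the widest range over the other 5 arrays, 0.53, set by the 2 CK2 arrays alone.

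**Figure D1:**
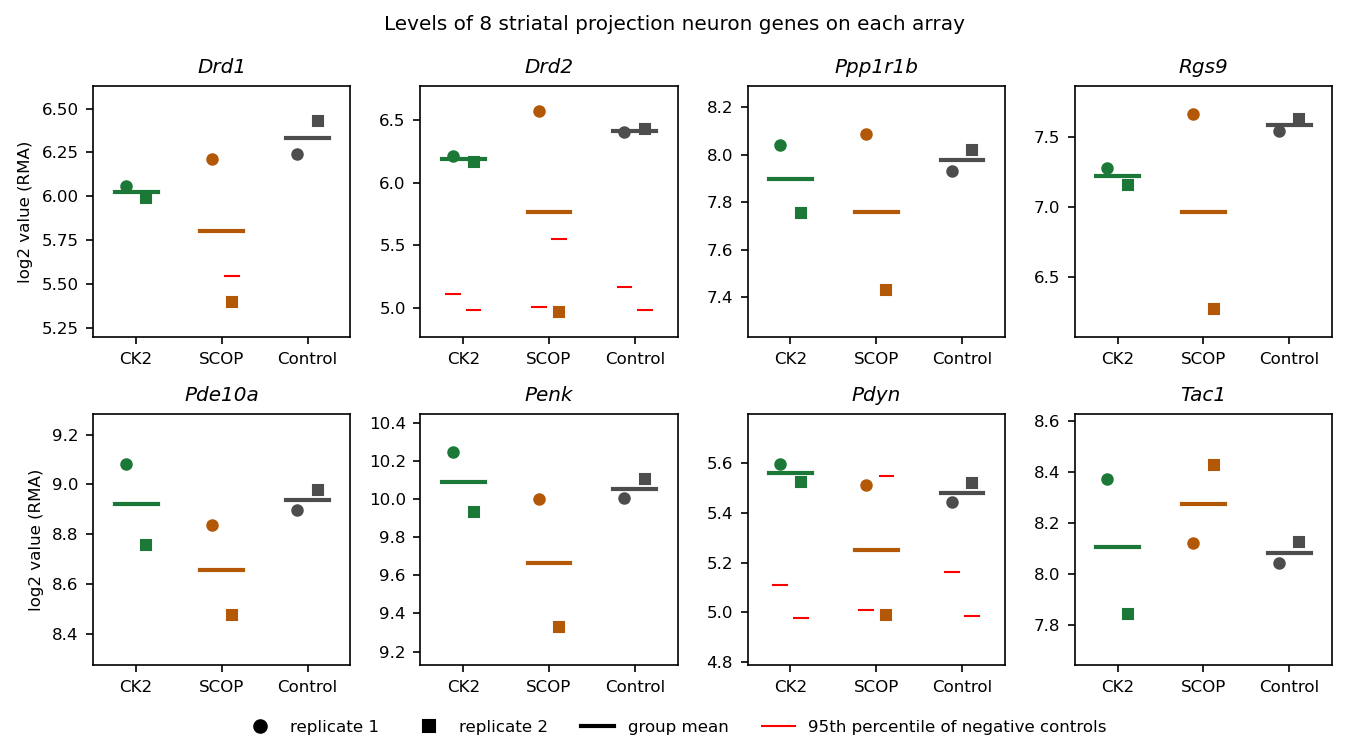
Log2 RMA values (y axis) of the 8 measured genes on each array of the CK2, SCOP and Control groups (x axis). Circles are replicate 1, squares replicate 2, thick bars group means, and thin red lines the array's 95th percentile of negative controls where it falls inside the panel. SCOP replicate 2 is the lowest array for 7 genes and the highest for Tac1, and both CK2 arrays lie below Control for Drd1, Drd2 and Rgs9.

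The low values on SCOP replicate 2 were shared with many other genes. This array was the lowest of the 6 for 7 of the 8 genes, against 33.2% of all 19505 genes and 51.3% of the 10039 genes that were not dim on every array. Relative to the mean of the other 5 arrays, the 8 genes differed on it by a median of -0.63, from -1.39 for Drd2 and -1.18 for Rgs9 to 0.33 for Tac1. Markers of neurons in general had a median of -0.94 with 8 of 8 below 0, and markers of cortical and hippocampal excitatory neurons one of -0.60 with 10 of 10 below 0. Thalamic markers had -0.51 with 6 of 6 below 0. The difference between the striatal genes and these lists was not tested. Hypothalamic markers had a median of -0.12, cerebellar markers one of 0.13 and astrocyte markers one of -0.12. Lower values were not limited to neuronal lists. Choroid plexus markers had a median of -1.03 and endothelial markers one of -0.47, each with 4 of 5 below 0. Oligodendrocyte markers had -0.40 with 4 of 7 below 0, and microglial markers -0.32 with 4 of 6. Over genes not dim on every array the median was -0.20, with 64.3% below 0.

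The comparison of CK2 with SCOP asks how CK given with SCOP differs from SCOP alone. The methods name no gavage for SCOP mice, so CK and the gavage itself cannot be told apart. Of the 8 genes, 7 had a higher mean in CK2, as did 52.4% of all genes. The remaining 1 had a lower mean, as did 35.6% of the genes not dim on every array, so most of those were higher too. The log2 changes were 0.42 for Penk, 0.42 for Drd2, 0.31 for Pdyn, 0.27 for Pde10a, 0.25 for Rgs9, 0.22 for Drd1 and 0.14 for Ppp1r1b. Tac1 had -0.17. No member passed an adjusted p under 0.05 in limma (adjusted p of 0.89 to 0.93), nor did any gene of the table (0%), and no member passed an unadjusted p under 0.05, where 2.57% of all genes did. Pdyn was the only member whose CK2 arrays both lay above both SCOP arrays, which held for 15.5% of all genes. Its lower CK2 value, 5.524, was only marginally above SCOP replicate 1 at 5.513. The median change of the 8 genes was 0.26, against 0.02 over all genes and 0.10 over genes not dim on every array. Without SCOP replicate 2 the median was -0.10, the changes of Drd1, Drd2, Ppp1r1b and Rgs9 were -0.19, -0.38, -0.19 and -0.44, and 5 of the 8 lay below 0, where 49.2% of all genes did. Rgs9 then passed an unadjusted p under 0.05 (3.76% of all genes did, 1.83% as lower) and no adjusted threshold. Penk (0.09), Pdyn (0.05) and Pde10a (0.08) stayed above 0 and Tac1 (-0.01) below it, so that 4 of the 8 genes changed sign without that array. The 95% confidence interval of the change on 6 arrays ran from -0.60 to 1.44 for Drd2 and from -0.22 to 0.84 for Pdyn.

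The comparison of SCOP with Control asks how injected SCOP differs from saline given by gavage. The methods name no injection for Control mice and no gavage for SCOP mice. SCOP therefore cannot be told apart from the injection itself or from a difference in gavage. The SCOP mean was below the Control mean for 7 of the 8 genes, where 49.9% of all genes and 63.2% of those not dim on every array had a change below 0. The log2 changes were -0.65 for Drd2, -0.62 for Rgs9, -0.53 for Drd1, -0.39 for Penk, -0.28 for Pde10a, -0.23 for Pdyn and -0.22 for Ppp1r1b, and 0.19 for Tac1. None passed an adjusted p under 0.05 in limma (adjusted p of 0.86 to 0.88; 0% of all genes passed) or an unadjusted p under 0.05 (3.31% of all genes). The standard errors, 0.44 for Drd2 and 0.39 for Rgs9, were large, and in both genes the 2 SCOP arrays differed by more than the replicates of CK2 or Control. Drd1, Penk and Pde10a had both SCOP arrays below both Control arrays, which was true of 13.3% of all genes and 17% of those not dim on every array. SCOP replicate 1 alone lay close to Control. Without SCOP replicate 2 the changes ranged from -0.12 for Drd1 to 0.16 for Drd2, with a median of 0.03 and 3 of 8 below 0 (48.5% of all genes), and no member passed an unadjusted p under 0.05 (4.74% of all genes).

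With SCOP replicate 1 left out instead, SCOP replicate 2 alone stood for SCOP, on the assumption that its spread equals that of the other groups. Then Drd2, Rgs9 and Penk differed between CK2 and SCOP (log2 changes of 1.23, 0.94 and 0.76; adjusted p of 0.013, 0.020 and 0.046 in limma), and Drd2, Rgs9 and Drd1 differed between SCOP and Control (-1.45, -1.31 and -0.93; adjusted p of 0.012, 0.014 and 0.022). In that fit 3240 and 3137 of all genes passed the same threshold in the 2 comparisons. These calls compare a single array that stood apart with the other groups.

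The changes of CK2 against Control rest on no SCOP array, and the Control arrays are those used above for SCOP. CK, SCOP and the injection are joined in this comparison and cannot be told apart. Of the 8 genes 5 lay below 0, against 46.8% of all genes and 49.3% of those not dim on every array. Rgs9 had the largest difference of the 8 genes, -0.37 on the log2 scale (95% confidence interval -1.27 to 0.54), or 0.78 of the Control signal. It was followed by Drd1 with -0.31 (-0.95 to 0.34) and Drd2 with -0.23 (-1.25 to 0.79). These 3 genes were also the ones whose CK2 arrays both lay below both Control arrays and SCOP replicate 1, a pattern held by 8.88% of all genes and by 10.3% of those not dim on every array. Being below both Control arrays alone held for 15.7% of all genes and 18% of those not dim on every array. Pdyn was above both Control arrays (18.4% of all genes) and above SCOP replicate 1 as well (10.7%), but only marginally. It read 5.524 on CK2 replicate 2, against 5.519 on Control replicate 2 and 5.513 on SCOP replicate 1. The other members showed smaller changes: -0.08 for Ppp1r1b, -0.02 for Pde10a, 0.02 for Tac1, 0.04 for Penk and 0.08 for Pdyn. No member passed an adjusted p under 0.05 in limma (adjusted p of 0.9999; 0% of all genes) or an unadjusted p under 0.05 (1.44% of all genes). The spread in this fit is shared by all groups, and SCOP replicate 2 widened it for these genes: the standard error of Rgs9 was 0.39 with that array and 0.14 without it. Without it Rgs9 passed an unadjusted p under 0.05 and no adjusted threshold (adjusted p of 0.93), where 5.18% of all genes passed the unadjusted level and 1.93% did so as lower. Drd1 and Drd2 did not pass either level.

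**Figure D2:**
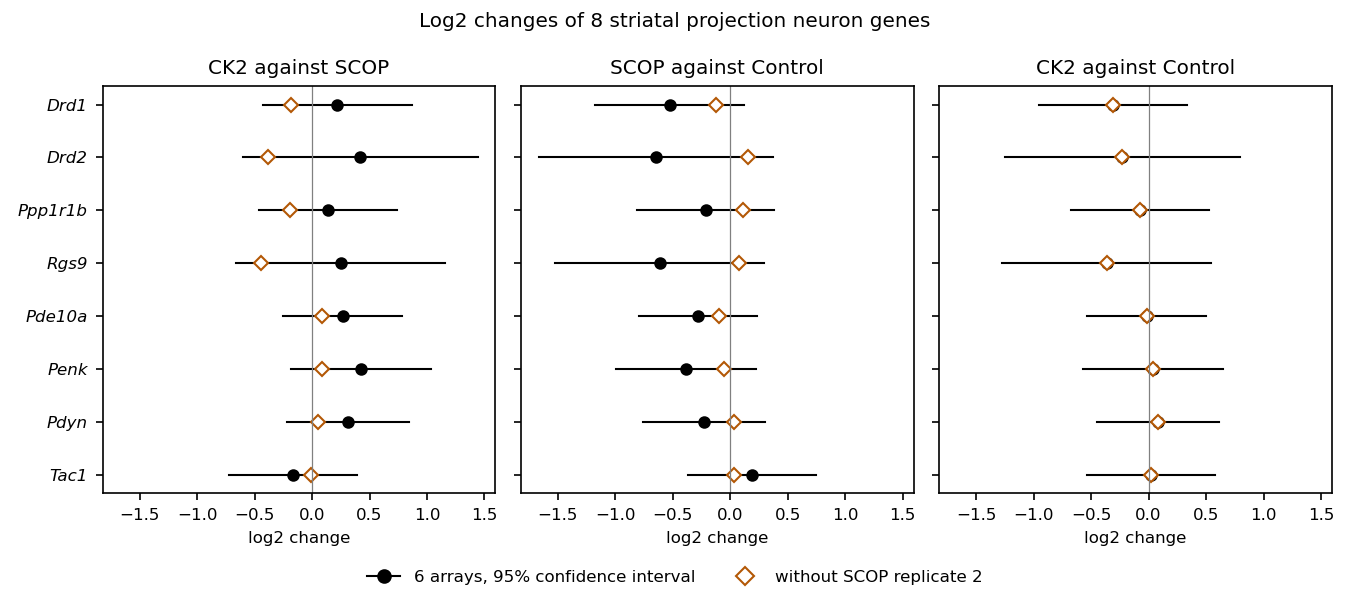
Log2 changes (x axis) of the 8 genes in each of the 3 comparisons. Filled circles with lines are the changes over 6 arrays with 95% confidence intervals, and open diamonds the changes without SCOP replicate 2, which coincide with the circles in CK2 against Control. All intervals over 6 arrays include 0, and the diamonds of Drd2 and Rgs9 in CK2 against SCOP lie at -0.38 and -0.44.

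The direction in CK2 against Control held for Rgs9, Drd1, Drd2 and Pdyn whichever array was left out. The CK2 and Control arrays of these genes do not overlap, though for Pdyn only by a narrow margin, so leaving out 1 array could not turn the sign. The result restates that lack of overlap and is no separate check. Their changes ran from -0.42 to -0.31 for Rgs9, from -0.40 to -0.21 for Drd1, from -0.25 to -0.21 for Drd2 and from 0.04 to 0.12 for Pdyn. For Ppp1r1b, Pde10a, Penk and Tac1 the sign depended on which CK2 array was kept, with Tac1 running from -0.24 to 0.29. The 2 CK2 arrays differed in all 8 genes in the same direction, replicate 2 being lower than replicate 1 in each, against 47.4% of all genes and 49% of those not dim on every array. CK2 replicate 2 was the lowest of the 5 arrays other than SCOP replicate 2 for 7 of the 8 genes, against 16.7% of all genes and 18.5% of those not dim on every array. These positions were noticed after the values were seen, and the 8 genes share cells and arrays, so they are a description. A further 21 striatal projection neuron genes did not share this difference. They averaged 7.06 on CK2 replicate 2 and 7.05 on CK2 replicate 1, inside the range of the 5 arrays (7.04 to 7.18). On CK2 replicate 2 Slc18a2, the vesicular transporter that loads dopamine and other monoamines, read 6.26, against 5.41 on CK2 replicate 1. Midbrain dopamine neuron markers averaged 6.00 there, against 5.65. The part of tissue makeup in this difference between CK2 arrays was not tested.

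**Figure D3:**
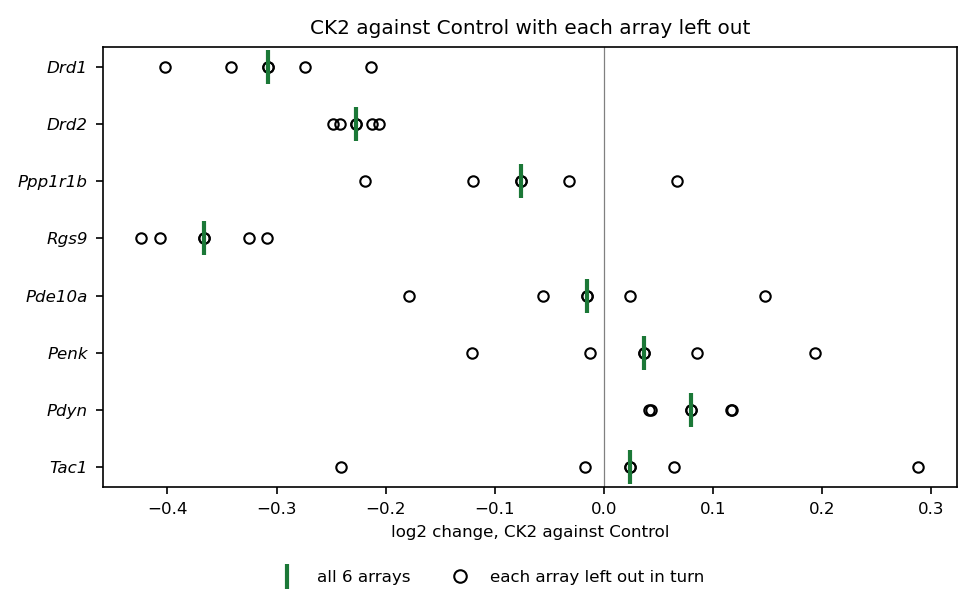
Log2 change of CK2 against Control (x axis) for each of the 8 genes. The green bar is the value with all 6 arrays and each open circle the value with 1 array left out. Drd1, Drd2 and Rgs9 stay below 0 and Pdyn above 0 in every case, which follows from CK2 and Control arrays that do not overlap (for Pdyn only marginally). The other 4 genes have values on both sides of 0.

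The balance between the direct and indirect pathway genes was followed within each array, as the mean of Drd1, Pdyn and Tac1 minus the mean of Drd2 and Penk, each relative to its Control mean. It was 0.05 and 0.00 on the CK2 arrays, -0.07 and 0.73 on the SCOP arrays, and -0.03 and 0.03 on the Control arrays. The CK2 arrays thus lay within 0.05 of Control, and the value on SCOP replicate 2 came from a low Drd2 and a high Tac1. Between the 2 receptors alone, Drd1 minus Drd2 relative to Control was -0.07 and -0.09 in CK2, -0.28 and 0.52 in SCOP, and -0.08 and 0.08 in Control. The SCOP arrays again lay at both ends. Relative to Control, Drd1 and Drd2 together averaged -0.24 and -0.29 on the CK2 arrays, and the 3 peptide genes 0.20 and -0.11.

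A further 21 genes of striatal projection neurons were followed. In CK2 against Control their median change was -0.03, with 12 below 0 and 9 above 0, and none passed an unadjusted p under 0.05. Gnal, the G protein subunit that couples the D1 receptor to adenylyl cyclase, read 8.49 and 8.51 in CK2, 8.69 and 7.86 in SCOP, and 8.68 and 8.81 in Control. The cytoskeletal protein gene Actn2 read 6.00 and 5.99 in CK2, 6.12 and 5.01 in SCOP, and 6.29 and 6.22 in Control. Both CK2 arrays lay below both Control arrays for 6 of the 21 genes, against 15.7% of all genes and 18% of those not dim on every array. They lay above both Control arrays for 3 of the 21, against 18.4% of all genes. The 6 were Gnal (log2 change -0.24), Actn2 (-0.26), Tmem158 (-0.27), Foxp1 (-0.18), Meis2 (-0.14) and Bcl11b (-0.08), the last 3 being transcription factors of projection neurons. The 3 were Rasd2 (0.26), Syndig1l (0.20) and Lrrc10b (0.31), and the adjusted p in limma was 0.9999 for each of these 9 genes. In CK2 against SCOP the list's median was 0.27 with 18 of 21 above 0 (52.4% of all genes), and -0.17 with 6 of 21 above 0 without SCOP replicate 2. In SCOP against Control it was -0.26, with 17 of 21 below 0 (49.9% of all genes, 63.2% of those not dim on every array). Without SCOP replicate 2 it was 0.07, with 5 of 21 below 0 (48.5% of all genes). In that comparison Lrrc10b alone of the 21 passed an unadjusted p under 0.05, with a log2 change of 0.62 (adjusted p of 0.86 in limma), and it was dim on every array.

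Among 6 further direct pathway genes, Chrm4, the M4 muscarinic receptor through which acetylcholine opposes D1 signalling, read 6.30 and 6.36 in CK2, 6.45 and 5.01 in SCOP, and 6.55 and 6.63 in Control. As for Drd1, both CK2 arrays lay between SCOP replicate 2 and all others, and the log2 change of CK2 against Control was -0.26. Eya1, a transcription cofactor, had SCOP arrays below Control arrays (log2 change -0.36), which was -0.31 without SCOP replicate 2. All 6 direct pathway genes, of which 2 were dim on every array, lay below 0 in SCOP against Control. So did 49.9% of all genes and 63.2% of those not dim on every array. Without SCOP replicate 2, 4 of the 6 lay below 0, against 48.5% of all genes. Among 6 further indirect pathway genes, Sp9, a transcription factor that indirect pathway neurons need, was highest on SCOP replicate 2 at 6.82, against 5.83 to 6.17 on the other arrays. Gpr6, an orphan receptor of indirect pathway neurons, read 6.26 and 6.10 in CK2, 6.21 and 5.13 in SCOP, and 6.07 and 6.09 in Control. The median change of the 6 indirect pathway genes in CK2 against Control was 0.04 and that of the 6 direct pathway genes -0.09, and no gene of either list passed an unadjusted p under 0.05 in any comparison.

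Of the other dopamine receptors, Drd3 and Drd5 were dim on every array. Drd4 read 4.76 and 4.75 in CK2, 4.68 and 5.75 in SCOP, and 4.44 and 4.37 in Control, so that SCOP replicate 2 was its only array above the dim level. Its change in SCOP against Control was 0.81 (adjusted p of 0.86 in limma) and 0.28 without that array. Of 15 genes of dopamine synthesis, transport and breakdown, 14 were measured and 6 were dim on every array. Th, the rate-limiting enzyme of dopamine synthesis, read 5.69 and 5.86 in CK2, 5.87 and 4.74 in SCOP, and 5.81 and 5.81 in Control. The dopamine transporter gene Slc6a3 read 5.47 and 5.71 in CK2, 5.70 and 4.22 in SCOP, and 5.45 and 5.25 in Control. Neither showed CK2 arrays below Control arrays as Drd1, Drd2 and Rgs9 did. For Slc18a2 CK2 differed from SCOP by 0.70 and from Control by 0.61 on the log2 scale (adjusted p of 0.89 and 0.9999 in limma), set mainly by CK2 replicate 2. Nr4a2, a transcription factor of dopamine neurons that cortical neurons also express, read 7.78 and 7.82 in CK2, 7.67 and 6.02 in SCOP, and 7.86 and 7.86 in Control.

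The 10 effectors of dopamine and cAMP signalling, among them Gnao1, Cdk5r1 and Gnb5, the partner of Rgs9, held none that was dim on every array. All 10 had changes above 0 in CK2 against SCOP (median 0.28) and below 0 in SCOP against Control (median -0.21). Of all genes, 52.4% lay above 0 in the former and 49.9% below 0 in the latter. Among genes not dim on every array, 35.6% lay below 0 in the former and 63.2% in the latter. Without SCOP replicate 2 the counts for the 10 effectors were 5 of 10 above 0 and 2 of 10 below 0. Gnb5 read 7.92 and 7.80 in CK2, 7.83 and 6.98 in SCOP, and 7.67 and 7.66 in Control, and so did not follow the lower Rgs9 values of CK2. Among the receptors for the peptides, all 6 lay above 0 in CK2 against SCOP (median 0.46), where 52.4% of all genes did, and 2 passed an unadjusted p under 0.05, where 2.57% of all genes did. These were Oprl1, the nociceptin receptor gene, with 0.80, and Tacr1, the substance P receptor gene, with 1.07 (adjusted p of 0.89 in limma for both). Without SCOP replicate 2 they were 0.33 and 0.30 and the list split 3 against 3. Tacr1 read 5.22 and 5.64 in CK2, 5.13 and 3.59 in SCOP, and 5.52 and 5.22 in Control. On the acetylcholine side, Chat was dim on every array, and Ache, the enzyme that breaks acetylcholine down, read 7.26 and 7.40 in CK2, 7.34 and 5.44 in SCOP, and 7.42 and 7.17 in Control. Of 12 cholinergic genes, 5 were dim on every array. In CK2 against SCOP 10 of the 12 lay above 0, where 52.4% of all genes did, and 5 of 12 did without SCOP replicate 2.

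**Figure D4:**
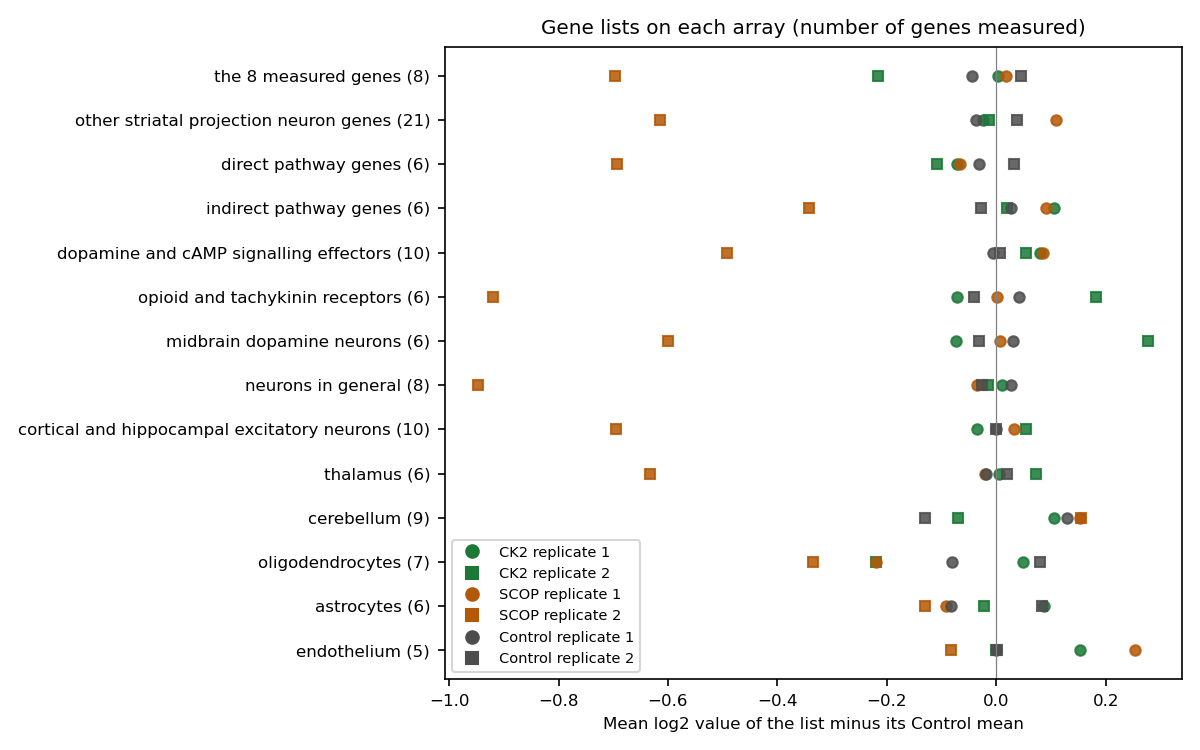
Mean log2 value of each gene list on each array, minus the list's Control mean (x axis), with the number of genes measured in brackets. Green marks are CK2, brown SCOP and grey Control, circles replicate 1 and squares replicate 2. SCOP replicate 2 lies below the other 5 arrays for the striatal genes and for the neuronal markers of cortex and thalamus alike. It also does so for oligodendrocyte, astrocyte and endothelial markers, and is narrowly the highest array for cerebellar markers. CK2 replicate 2 is the next lowest for the 8 striatal genes and the highest for midbrain dopamine neuron markers.

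The 10 genes whose levels most resembled the mean profile of the 8 over the 6 arrays were Itgav, Arfgap1, Gna12, Bhlhe40, Abcd3, Rasgef1b, Slitrk2, Camsap3, Oxnad1 and Dcx, with Pearson's r of 0.993 to 0.998. Among them are an integrin subunit gene (Itgav), a G protein subunit gene (Gna12) and the gene of the microtubule protein doublecortin (Dcx). Of the 9812 genes compared, 1678 had an r above 0.9 over 6 arrays. Over the 5 arrays without SCOP replicate 2 the r of these 10 genes was 0.943 to 0.986. The genes were chosen by an r that includes these 5 arrays, so this is no separate check. Only Bhlhe40 and Abcd3 of them were also among the 10 genes with the highest r over the 5 arrays alone.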

How the data were processed

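RNA from brain tissue was hybridised to 6 Affymetrix arrays with a biotin label. The deposited values are log2 signals of probe sets after RMA, the tool that the submitters' processing notes name without a version. RMA includes background correction, normalization across arrays and summary of the probes, so no further normalization was applied. Of 22206 transcript probe sets, 19572 had 1 gene symbol in the platform's annotation table (all unchanged in the mouse RefSeq table by Entrez identifier) and 2634 had none there. The probe set with the highest mean was kept for the 55 genes with several, which left 19505 genes. No dim gene was filtered out (9466 were dim on every array).

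All arrays were fitted together in limma 3.58.1 (R 4.3.3; lmFit, eBayes; 3 residual and 5.08 prior degrees of freedom), and p-values were adjusted by Benjamini-Hochberg over all genes. The fit was tested on simulated data with normal values and the same spread on every array. That simulation held no array that stood apart, so it does not bear on SCOP replicate 2. With 2 arrays a group, the smallest p of an exact permutation test is 0.333. The members and lists were chosen with earlier results of these data known. Named genes are the 8 members, up to 4 of each list with the smallest p among genes not dim on every array, others named after their values were seen (Th, Slc6a3, Drd3, Drd5, Chat, Pnoc, Foxp1, Meis2, Rasd2, Syndig1l and Lrrc10b), and the 10 genes most like the members. Alternatives were other normalizations, filters on dim genes, a mean over probe sets, a trended or robust eBayes step, the replicate number as block, a fit of only the arrays compared, the methods' t-test and each array left out. Array weights and the list values without SCOP replicate 2 were chosen after seeing the data. The number of arrays limits the precision.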

Additional observations from a re-analysis of the deposited data

How the results depend on the processing

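No gene and no member passed an adjusted p under 0.05 in limma in any comparison under quantile, cyclic loess or median-centred values. Nor did any under filters on dim genes, a mean over probe sets, a trended or robust eBayes step or only the arrays compared. The methods' t-test and array weights also called none. Array weights were 0.34 for both SCOP arrays. With 2 arrays a group both must get the same weight, so the weights could not single out replicate 2. The genes under an unadjusted p of 0.05 numbered 502 between CK2 and SCOP, 646 between SCOP and Control and 280 between CK2 and Control. With dim genes filtered these counts were 315, 406 and 174 at the 25th percentile and 137, 180 and 58 at the median. The filtered fits tested fewer genes, so their counts cannot be set directly against the others. With only the arrays compared the counts were 271, 307 and 1011, and with array weights 308, 291 and 1126. The methods' t-test gave 975 in CK2 against Control. That t-test put 2 members there under 0.05, and the fit of only the arrays compared 1. With the replicate number as a block 0 genes and 0 members were called in each comparison. Deviations of same-numbered arrays correlated at 0.02 (SCOP and Control), -0.0049 (CK2 and Control) and -0.03 (CK2 and SCOP), so the numbers did not pair the arrays.

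With each array left out in turn, genes called ran from 0 to 3240 in CK2 against SCOP and from 0 to 3137 in SCOP against Control, and members called from 0 to 3 in both, the highest always without SCOP replicate 1. The members' median ran from -0.10 to 0.60, from -0.63 to 0.03 and from -0.23 to 0.09 in the 3 comparisons. Signs changed in CK2 against SCOP for Drd1 (-0.19 to 0.63), Drd2 (-0.38 to 1.23), Ppp1r1b (-0.19 to 0.47), Rgs9 (-0.44 to 0.94) and Tac1 (-0.43 to 0.10). They changed in SCOP against Control for Drd2 (-1.45 to 0.16), Ppp1r1b (-0.54 to 0.11), Pdyn (-0.49 to 0.032) and Rgs9 (-1.31 to 0.077), and in CK2 against Control for Ppp1r1b (-0.22 to 0.067), Penk (-0.12 to 0.19), Tac1 (-0.24 to 0.29) and Pde10a (-0.18 to 0.15). Other settings turned the sign of 3 small changes of CK2 against Control: Pde10a was 0.014 with quantile and 0.016 with cyclic loess normalization, and with medians centred Penk was -0.032 and Tac1 -0.045. The cause was not tested. With 2 arrays a group, changes of the size seen here cannot be separated from the spread between arrays.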

Other observations

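The neuropeptide genes of interneurons and neighbouring cells (Npy, Sst, Cck, Pnoc and Tac2) were followed beside the peptide genes of the projection neurons. All 5 lay below 0 in CK2 against Control (median -0.15) and in SCOP against Control (median -0.69, and -0.19 without SCOP replicate 2), and both comparisons use the same Control arrays. In CK2 against Control 46.8% of all genes and 49.3% of those not dim on every array lay below 0. In SCOP against Control these shares were 49.9% and 63.2%. Sst, the somatostatin gene, read 10.11 and 10.23 in CK2, 10.04 and 9.40 in SCOP, and 10.23 and 10.40 in Control. Cck, the cholecystokinin gene, read 9.61 and 9.91 in CK2, 9.90 and 8.75 in SCOP, and 10.01 and 10.16 in Control. Sst passed an unadjusted p under 0.05 in SCOP against Control (log2 change -0.59, adjusted p of 0.86 in limma), where 3.31% of all genes did. No gene of the list passed the adjusted threshold.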
